A study of Mus musculus with 4 samples.

Results

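The comparison described here set tumors treated with anti-MIF alone against tumors treated with an isotype antibody, in a long and in a short treatment cohort of the same mouse melanoma experiment. The members were 2365 cells, 1462 with the anti-MIF hashtag and 903 with the isotype hashtag, of 7503 barcodes in all. A barcode was taken when it held 200 to 5000 genes and at most 5% of its unique molecular identifiers (UMIs) on mitochondrial genes, and when its most abundant hashtag had at least 3 times the UMIs of the second. The long cohort gave 159 isotype and 895 anti-MIF cells of 2516 barcodes, and the short cohort gave 744 isotype and 567 anti-MIF cells of 4987.

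YUMMER1.7 melanoma, a mouse line made highly mutated by UV irradiation, was grown under the skin of wild-type male C57BL/6J mice aged 7 to 8 weeks, and treatment began at day 7. The control arm received IgG1 isotype and the other arm the anti-MIF antibody IIID.9 at 20 mg/kg into the peritoneum, with the isotype at the equivalent dosage. The short cohort had 2 doses in 1 week with harvest at day 14, and the long cohort had 4 doses in 2 weeks with harvest at day 21. Tumor cells of each arm were sorted on CD45, recombined at 80% CD45+ and 20% CD45- cells, labelled with a hashtag antibody and pooled with the other arms into 1 droplet library (10x 5′) per cohort. The other arms were anti–PD-1, anti–PD-1 with anti-MIF, and an arm labelled anti-PD1-MIF-DDT. The mice within an arm cannot be told apart, so each arm of a cohort is 1 sample. Differences within a cohort therefore have no replicate check and no test, and their 95% intervals cover counting error only.

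MIF (macrophage migration inhibitory factor) is a cytokine that many tumor and immune cells release. It binds CD74, which signals together with CD44, and it also engages the chemokine receptors CXCR2 and CXCR4. DDT (D-dopachrome tautomerase) is its close homolog and shares CD74. CD74 has a second role as the invariant chain, which accompanies MHC class II molecules to the compartment where peptides are loaded. Tumor macrophages arise largely from Ly6C-high monocytes that enter from blood, and C1q, MHC class II and lipid-handling genes mark macrophages that have matured in the tissue.

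The arm of every cell rests on a 15-base hashtag, so the sequences of the compared arms and of the 3 other arms in the same pools are shown, 5′ to 3′, as deposited. Capitals mark the bases that differ from the isotype hashtag at the same position, and the anti-MIF hashtag differs from it at 12 of 15.
Isotype: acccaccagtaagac
anti-MIF: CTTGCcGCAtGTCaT
anti-PD1: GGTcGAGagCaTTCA
anti-PD1-MIF: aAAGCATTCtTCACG
anti-PD1-MIF-DDT: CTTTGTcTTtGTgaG
Among the 10 pairs of hashtags the number of differing positions ran from 8 to 13.

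Before any result, the long isotype arm stood apart. Of 249 cells there with the isotype hashtag on top, 90 (36.1%) fell under the 3-fold limit, against 152 of 1047 (14.5%) in the long anti-MIF arm, 69 of 813 (8.49%) in the short isotype arm and 29 of 596 (4.87%) in the short anti-MIF arm. The loss was uneven over cell types, since 53 of 101 myeloid-gated cells (52.5%) but 8 of 65 T-gated cells (12.3%) of the long isotype arm were lost. Isotype cells of the long cohort carried a median of 920 UMIs of their own hashtag and 195 of the second, against 1460 and 213 for anti-MIF. The shares of gated cells are therefore also given with HTODemux, which models the hashtags instead of using a ratio, and with a lower limit of 1.5 times that was chosen after seeing the data. HTODemux called 17 of the 159 kept long isotype cells, 113 of the 895 long anti-MIF, 33 of the 744 short isotype and 24 of the 567 short anti-MIF cells doublets of 2 arms. Shares of cells with a UMI of a gene are given for the 3-fold limit alone. The gene UMIs summed to 1275060 for isotype and 9495607 for anti-MIF in the long cohort, and to 5106759 and 3760366 in the short cohort. The median number of UMIs per cell was 7771 for isotype and 10548 for anti-MIF in the long cohort, against 6385.5 and 6381 in the short one. The libraries shared 20 barcodes, 15 of them among the kept cells.

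The cells were gated by marker genes. The T gate asked for a UMI of Cd3e (chr9:44998740-45009627, minus strand, GRCm38), the epsilon chain of CD3, and fewer than 5 Lyz2 UMIs per 10000. The myeloid gate asked for at least 5 UMIs per 10000 of Lyz2 (chr10:117277331-117282321, minus strand), the lysozyme of monocytes, macrophages and granulocytes, and no Cd3e. T-gated cells made up 57 of 159 isotype cells (35.8%, Clopper-Pearson interval 28.4 to 43.8) and 108 of 895 anti-MIF cells (12.1%, 10.0 to 14.4) of the long cohort. They made up 33 of 744 (4.44%, 3.07 to 6.17) and 52 of 567 (9.17%, 6.93 to 11.9) in the short cohort. The T-gated share was thus 23.8 points lower with anti-MIF after 4 doses and 4.74 points higher (2.01 to 7.68) after 2 doses. The long difference was -16.2 points (-23.0 to -10.1) with HTODemux and -16.0 points with the 1.5-fold limit, and the short one 4.43 and 4.63 points.

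Myeloid-gated cells made up 48 of 159 isotype cells (30.2%, 23.2 to 38.0) and 504 of 895 anti-MIF cells (56.3%, 53.0 to 59.6) in the long cohort, a difference of 26.1 points (17.9 to 33.5). In the short cohort they made up 519 of 744 (69.8%, 66.3 to 73.0) and 375 of 567 (66.1%, 62.1 to 70.0), and the interval of the difference (-8.73 to 1.46 points) spanned 0. With a Lyz2 limit of 20 per 10000 the short difference was -7.51 points (-12.9 to -2.05), an interval below 0. With HTODemux the long shares were 37.3% and 56.0%, and with the 1.5-fold limit 39.1% and 57.2%, and the short differences were -2.76 and -3.83 points. Of the other arms, those of the model held, in the long cohort, 35.5% (anti–PD-1) and 51.0% (anti–PD-1 with anti-MIF) myeloid-gated cells and 19.9% and 14.9% T-gated cells. In the short cohort these arms held 62.5% and 62.0% myeloid-gated and 11.6% and 7.77% T-gated cells, below isotype for the myeloid and above it for the T gate. The anti-PD1-MIF-DDT hashtag, which entered no model, had 228 myeloid-gated and 22 T-gated of 325 cells in the long cohort, and 801 and 46 of 1071 in the short one, where its myeloid share was above and its T share slightly below that of isotype. Cells outside both gates took 33.3% of isotype and 30.9% of anti-MIF cells in the long cohort, against 25.4% and 24.2% in the short one, and 1, 6, 3 and 3 cells passed both gates and were set aside.

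**Figure D1:**
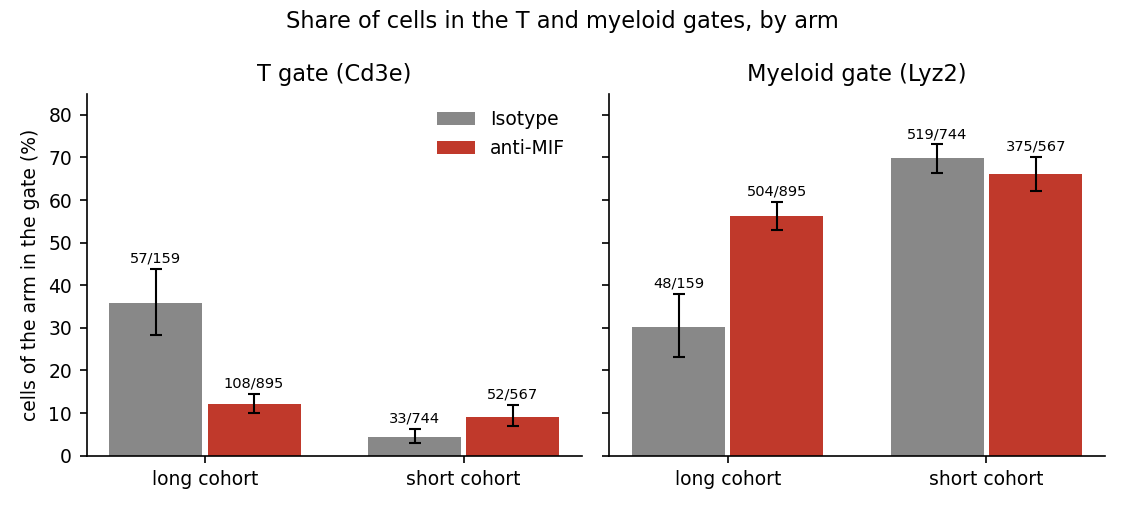
Share of an arm's cells in the T gate and in the myeloid gate (percent, with exact 95% Clopper-Pearson intervals), in grey for isotype and in red for anti-MIF, with the number of cells over the total above each bar. The long isotype arm has the highest T-gated share, 35.8%, and the lowest myeloid-gated share, 30.2%.

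Markers that the gates did not use were compared between them. Cd3g, the gamma chain of CD3, had 1563, 1528, 860 and 1158 UMIs per 1000000 UMIs of the gated cells (CPM) in the T gate and 0, 1.10, 0.774 and 0.359 CPM in the myeloid gate, for long isotype, long anti-MIF, short isotype and short anti-MIF. Csf1r, the growth factor receptor of macrophages, named after its values were seen, had 413, 565, 370 and 415 CPM in the myeloid gate and 0, 3.1, 0 and 13.2 CPM in the T gate. The 9 T cell markers other than Cd3e summed to 4615, 4888, 4178 and 4227 CPM in the T gate. In the myeloid gate they summed to 2.13, 6.46, 10.8 and 6.10 CPM in the same order, the order used for every list of 4 values from here on. The myeloid gate also held neutrophil and dendritic cell markers, whose levels are given with its genes. The long isotype arm rested on 48 cells in the myeloid gate and the short isotype arm on 33 in the T gate, the smallest samples of either. Markers of CD45- cells were also measured over all cells, since these cells were recombined at 20%. The melanoma genes Mlana, Dct, Tyr, Tyrp1 and Sox10 were at 0 UMIs in all 4 arms, which does not bound the share of melanoma cells. Mitf, a melanocyte regulator that mast cells and macrophages also use, was the most abundant of the melanoma list and had 27.4, 38.2, 52.3 and 79.0 CPM. The 9 genes of the list together had 51.8, 42.4, 79.7 and 105 CPM, most of the rest from Gpnmb, which macrophages also express. The fibroblast markers summed to 1.57, 1.79, 1.76 and 1.33 CPM, and the endothelial markers to 36.1, 33.7, 33.7 and 52.4 CPM. The common leukocyte antigen Ptprc (CD45) had a UMI in 89.9%, 90.7%, 85.9% and 92.9% of cells.

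Mif itself (chr10:75859353-75860240, minus strand) had 563, 768, 709 and 799 CPM over all cells, 1.36-fold higher with anti-MIF in the long cohort (1.26 to 1.47) and 1.13-fold higher in the short cohort (1.07 to 1.18). It was higher with anti-MIF in both cohorts in the myeloid gate (606, 856, 689 and 765 CPM) and in the T gate (526, 681, 673 and 815 CPM). Its homolog Ddt had 74.5, 73.8, 52.9 and 56.9 CPM over all cells, a nearly even level between the arms. Cd44, the signalling partner of CD74, had 375, 342, 1032 and 691 CPM over all cells, and in the myeloid gate it was lower with anti-MIF in both cohorts, at 570, 393, 1194 and 749 CPM (1.45-fold lower, 1.27 to 1.65, and 1.59-fold lower, 1.51 to 1.68). Cxcr4 had 47.8, 81.2, 264 and 197 CPM over all cells, higher with anti-MIF in the long and lower in the short cohort. Cxcr2, in these tumors a gene of few cells, had 3.14, 1.16, 8.62 and 6.91 CPM, and the scavenging receptor Ackr3 had 0, 0.737, 1.18 and 1.60 CPM. Sums over cells do not tell fewer positive cells from less RNA per cell, and this holds for every CPM value given.

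The receptor gene Cd74 went in opposite directions in the cohorts. It had 8810, 16550, 6532 and 4997 CPM in the myeloid gate, 1.88-fold higher with anti-MIF in the long cohort (1.82 to 1.94) and 1.31-fold lower in the short cohort (1.28 to 1.33). The same held over all cells, with 7565, 15220, 6887 and 5187 CPM. In the T gate, where Cd74 is not a lineage gene, it had 67.6, 313, 90.5 and 88.1 CPM.

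Myeloid-gated cells of the long cohort had 10 of 11 monocyte genes at least 2-fold lower and 5 of 9 C1q-associated genes at least 2-fold higher with anti-MIF. Gene by gene, a ratio was given where at least 10 UMIs were expected in each arm, and among all genes so measured 305 of 5416 were at least 2-fold higher (5.63%) and 123 at least 2-fold lower (2.27%) in the long cohort, and 204 of 9299 (2.19%) and 161 (1.73%) in the short cohort. These percentages are the background for every list in the myeloid gate. In the long cohort this gate held 470156 isotype and 6348433 anti-MIF UMIs. A gene with few isotype UMIs could therefore be measured through its anti-MIF level, while a gene low with anti-MIF passed less easily. The median log2 ratio over all measured genes was 0.06 in both cohorts.

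Of 11 inflammatory monocyte genes measured in the long cohort, 10 were at least 2-fold lower and none higher, with a median log2 ratio of -2.26. Of the same 11 in the short cohort none was 2-fold different, with a median of 0.10. Their summed level was 9331, 2826, 8588 and 9851 CPM, so that the long anti-MIF arm alone was low and the other 3 arms were alike. Plac8 (chr5:100553725-100572245, minus strand), a gene of circulating monocytes, had 2780, 890, 2980 and 4012 CPM, 3.12-fold lower (2.94 to 3.32) in the long and 1.35-fold higher in the short cohort. Ly6c2 (chr15:75108158-75111970, minus strand), which encodes the surface marker of inflammatory monocytes, had 2135, 786, 1142 and 1647 CPM, 2.72-fold lower (2.54 to 2.91) and then 1.44-fold higher (1.38 to 1.5). Thbs1 (chr2:118111876-118127133, plus strand), the matrix protein thrombospondin that also activates TGF-beta, had 1108, 231, 1608 and 1149 CPM and was lower with anti-MIF in both cohorts, 4.80-fold (4.34 to 5.31) and 1.40-fold. Thbs1 thus moved the same way in each pair, and Plac8 and Ly6c2 did not.

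Further monocyte genes, all but Chil3 named after their values were seen, showed the same split. Chil3 (chr3:106147554-106167564, minus strand), a chitinase-like protein of monocytes, had 966, 71.0, 682 and 730 CPM, 13.6-fold lower in the long cohort (11.9 to 15.5). Vcan, a matrix proteoglycan, had 185, 15.1, 213 and 214 CPM. F13a1, coagulation factor XIII A, had 364, 54.5, 281 and 290 CPM. Ccr2, the receptor that calls monocytes from marrow and blood, was the member that stayed within 2-fold, with 376, 338, 357 and 454 CPM. The count of 10 low genes also held with HTODemux and with the 1.5-fold limit, and after thinning every cell to 2000 UMIs 4 of 6 measured genes were 2-fold lower. By cells, Ly6c2 had a UMI in 44 of 48 isotype (91.7%) and 263 of 504 anti-MIF (52.2%) myeloid-gated cells of the long cohort, or in 79.2% and 35.4% at 2000 UMIs. The corresponding short shares were 65.7% and 74.9%, or 53.4% and 64.2% thinned. T-gated cells, some of which also carry Ly6C, had shares of 49.1%, 34.3%, 33.3% and 55.8%. Median depths were 9407.5, 12690, 6912 and 7298 UMIs per myeloid-gated cell. The neutrophil markers, led by S100a8, were also low in the long anti-MIF arm of this gate, at 968, 176, 1182 and 1361 CPM. In the long isotype arm 195 of the 286 S100a8 UMIs lay in 1 of the 48 cells. Of the neutrophil markers measured in the long cohort 2 of 3 were 2-fold lower and 0 higher. With HTODemux 2 of 5 were lower and 2 higher, and with the 1.5-fold limit 4 of 5 were lower and 0 higher. The part of these markers in the monocyte result was not tested.

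C1q is the recognition part of the classical complement pathway, made in tumors mainly by macrophages, and its 3 chains lie side by side on chromosome 4. C1qa (chr4:136895917-136898803, minus strand) had 1010, 2679, 472 and 304 CPM, 2.65-fold higher with anti-MIF in the long cohort (2.42 to 2.91) and 1.55-fold lower in the short cohort (1.43 to 1.68). C1qb (chr4:136880129-136886187, minus strand) had 1448, 3476, 793 and 569 CPM, 2.40-fold higher (2.22 to 2.59) and then 1.39-fold lower. C1qc (chr4:136889804-136893065, minus strand) had 674, 2345, 453 and 290 CPM, 3.48-fold higher (3.11 to 3.90) and then 1.56-fold lower. The long anti-MIF arm was highest and the short anti-MIF arm lowest for all 3 chains. C1qa had a UMI in 13 of 48 (27.1%, 15.3 to 41.8) and 326 of 504 (64.7%, 60.3 to 68.9) cells of the long cohort, or in 22.9% and 60.6% at 2000 UMIs. In the short cohort it had one in 22.9% and 16.5%, or in 17.7% and 10.8% thinned. In T-gated cells, which do not make C1q, the shares were 7.02%, 4.63%, 0% and 0%, at median depths of 5767, 4808, 3843 and 3984 UMIs. With anti–PD-1 the C1qa share was 27.0% in the long and 15.1% in the short cohort, and with anti–PD-1 and anti-MIF together 39.5% and 12.9%.

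The list of C1q-associated macrophage genes had 9 measured members in each cohort. In the long cohort 5 were at least 2-fold higher with anti-MIF, all 9 were above 0, and the median log2 ratio was 1.26, or 1.90 with HTODemux and 1.44 with the 1.5-fold limit. In the short cohort 1 was 2-fold lower, 4 were above 0, and the median was -0.17. Members outside the chains included Ms4a7, a macrophage membrane protein (149, 421, 52.6 and 46.6 CPM), and the mannose receptor Mrc1 (19.1, 81.6, 33.0 and 14 CPM), both named after their values were seen. Aif1, a calcium-binding protein of macrophage ruffling that was named after its values were seen, was higher with anti-MIF in both cohorts by less than 2-fold, with 498, 578, 298 and 360 CPM.

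Lipid-associated macrophage genes had 4 of 8 members 2-fold higher in the long cohort, with a median of 0.89, and none of 11 in the short cohort, with a median of -0.15. Under the 1.5-fold hashtag limit the long median was 0.32 with 3 of 9 members 2-fold higher. Apoe, a lipid carrier that macrophages secrete, had 1149, 3219, 1014 and 750 CPM, 2.80-fold higher (2.57 to 3.06) and then 1.35-fold lower. Lgals3, a galactose-binding lectin, had 2280, 1623, 2329 and 2191 CPM and was lower with anti-MIF in each pair. Cd9, a tetraspanin, had 153, 203, 256 and 231 CPM. Trem2, the lipid-sensing receptor of such macrophages, named after its values were seen, had 115, 257, 126 and 98.3 CPM.

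MHC class II presentation genes had few members at 2-fold, while their summed level and their most abundant genes were higher with anti-MIF in the long and lower in the short cohort. The summed level was 8063, 15820, 7073 and 4634 CPM. At 2-fold, 2 of 8 measured members were higher in the long cohort (median 0.93) and 1 of 11 was lower in the short cohort (median -0.34). H2-Aa, the class II alpha chain, had 2878, 5533, 2325 and 1570 CPM, 1.92-fold higher and then 1.48-fold lower. H2-Eb1, a beta chain, had 2178, 4682, 1948 and 1128 CPM, 2.15-fold higher (2.02 to 2.29) and then 1.73-fold lower (1.66 to 1.80). H2-Ab1, the partner of H2-Aa, had 2152, 4196, 2103 and 1323 CPM, 1.95-fold higher and then 1.59-fold lower. These 3 genes thus had the order of the C1q chains, with the long anti-MIF arm highest and the short anti-MIF arm lowest. The count of 2 became 5 of 8 with HTODemux and with the 1.5-fold limit, and 0 of 9 (median 0.47) when the gates asked for 1 UMI. H2-Aa had a UMI in 58.3%, 85.5%, 47.2% and 50.7% of myeloid-gated cells, against 8.77%, 10.2%, 3.03% and 1.92% of T-gated cells. By that measure the short cohort did not have the lower share with anti-MIF that its CPM had, and no order was read from it. The mature dendritic cell markers also moved with MHC class II in this gate, at 80.8, 181, 87.4 and 31.9 CPM, and their part was not tested.

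Other presentation genes differed less. Of 10 lysosomal proteases and related proteins, 10 were above 0 in the long cohort (median 0.42) and 9 in the short cohort (median 0.16). Ctss, the cathepsin that trims the invariant chain, had 2552, 3025, 2007 and 2255 CPM. Cst3, a cathepsin inhibitor, had 2182, 2485, 2107 and 2264 CPM, and Ctsc, the cathepsin that activates granule proteases, 1140, 1564, 879 and 1133 CPM. All 3 were higher with anti-MIF in both cohorts, each by less than 2-fold. The 13 MHC class I genes had medians of 0.01 and 0.20.

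**Figure D2:**
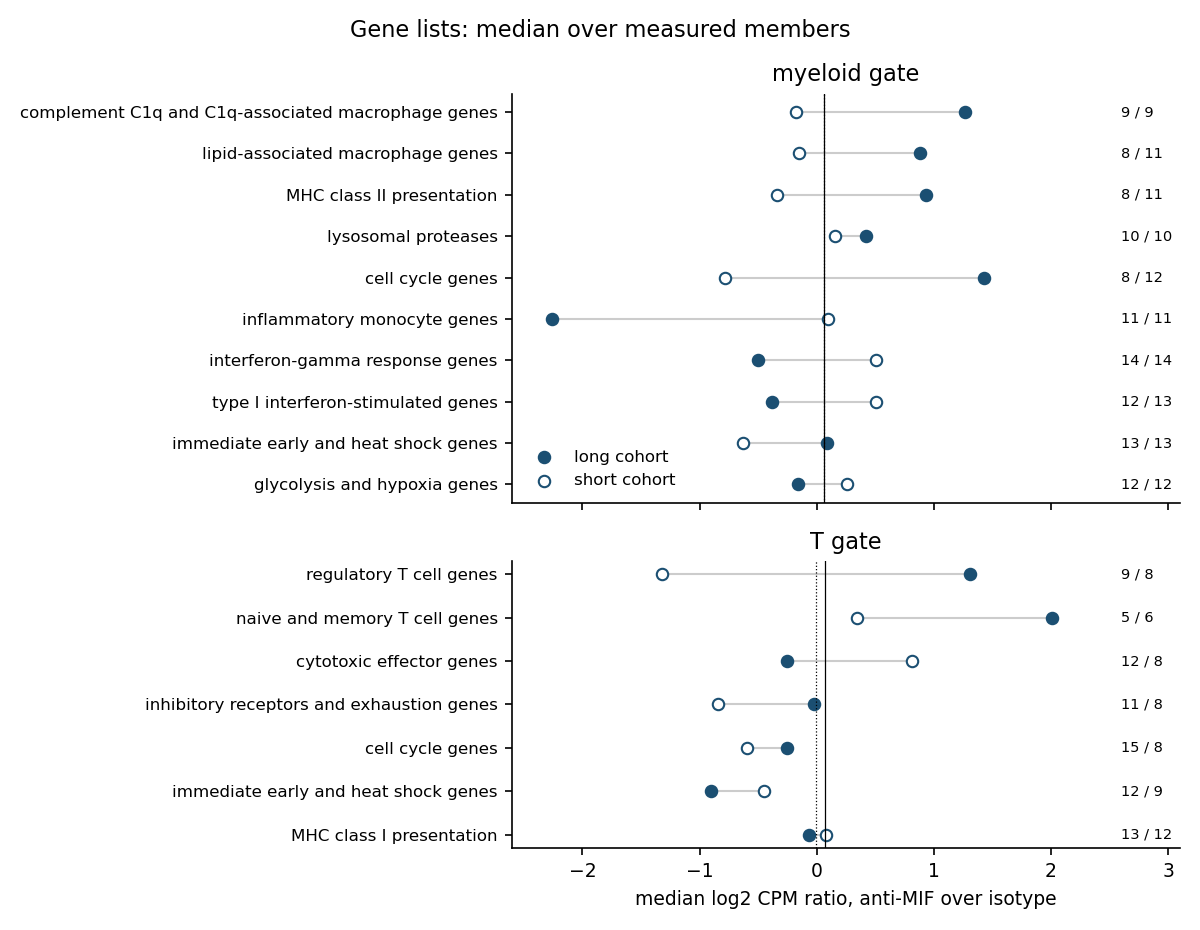
Median log2 ratio of anti-MIF to isotype CPM over the measured members of each gene list, in the myeloid gate (10 lists) and the T gate (7 lists), with filled dots for the long and open dots for the short cohort. Numbers at the right give the measured members in the long and short cohort, and vertical lines mark the median over all measured genes, solid for long and dotted for short. Inflammatory monocyte genes sit at -2.26 in the long cohort and 0.10 in the short, and regulatory T cell genes at 1.31 and -1.32.

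Few interferon genes of the myeloid gate were 2-fold different. Their list medians were below 0 with anti-MIF after 4 doses and above 0 after 2 doses, and the long medians depended on the cells taken. Of 14 interferon-gamma response genes, 1 was 2-fold lower in the long cohort (median -0.50), and 13 were above 0 in the short cohort with 1 at 2-fold (median 0.51). Cxcl10, a chemokine that draws CXCR3+ T cells, had 1038, 635, 713 and 696 CPM, 1.64-fold lower and then about level. Cxcl9, which shares that receptor, had 489, 355, 91.0 and 306 CPM, 3.36-fold higher (2.97 to 3.82) in the short cohort. Gbp2, a guanylate-binding protein of cell-autonomous defense, had 479, 331, 184 and 322 CPM, 1.75-fold higher there. With a Lyz2 limit of 20 per 10000 the long median was -0.04. Type I interferon-stimulated genes had none of 12 at 2-fold in the long cohort (median -0.38) and 12 of 13 above 0 in the short cohort (median 0.51). Isg15, a ubiquitin-like modifier, had 1480, 802, 776 and 1075 CPM, 1.85-fold lower (1.70 to 2.00) and then 1.39-fold higher. Irf7, which amplifies the type I response, had 678, 556, 234 and 341 CPM. The long type I result depended on the cells taken: the median was 0.09 at 2000 UMIs, while with the 1.5-fold limit 6 of 12 genes were 2-fold lower (median -1.0).

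The 16 cell cycle genes summed to 568, 1033, 604 and 478 CPM in the myeloid gate. This sum was higher with anti-MIF in the long and lower in the short cohort. Of the cell cycle list, 4 of 8 measured members were 2-fold higher with anti-MIF in the long cohort (median 1.43). Only 8 of the 16 members were measured there, under a limit that leans to genes high with anti-MIF. This count and median were therefore not read as a change of the group. In the short cohort 6 of 12 were 2-fold lower (median -0.79). Birc5, a mitotic survival protein, had 4.25, 33.7, 14.2 and 2.87 CPM. Mki67, the proliferation antigen, named after its values were seen, had 4.25, 38.8, 12.9 and 5.74 CPM. When the limit of 5000 genes per cell was lifted, 9 of 12 cell cycle genes were 2-fold higher in the long cohort (median 2.67). The long count was 7 of 10 (median 2.49) with HTODemux and 9 of 12 (median 2.11) with the 1.5-fold limit. The long isotype level of Birc5 and Mki67 rested on very few UMIs, since its 4.25 CPM of each came from 2 UMIs, under the floor of 3 UMIs.

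Among inflammatory mediators, Il1b, the inflammasome cytokine, had 1570, 2400, 2648 and 1462 CPM, 1.53-fold higher and then 1.81-fold lower with anti-MIF. Its list had 1 of 8 members 2-fold higher in the long cohort (median 0.09) and 2 of 10 higher with 1 lower in the short cohort (median 0.03). Fos, an immediate early transcription factor, had 1214, 2304, 1551 and 846 CPM, again higher and then lower. The heat shock gene Hspa1a went the other way, with 717, 85.7, 284 and 444 CPM, 8.37-fold lower (7.28 to 9.60) and then 1.56-fold higher. Hspa1b, whose sequence is nearly the same so that the reads of the 2 copies are hard to assign, had 540, 69.6, 247 and 425 CPM, and both were named after their values were seen. The whole list of immediate early and heat shock genes had 1 member of 13 2-fold higher and 3 lower in the long cohort (median 0.08), and 1 of 13 lower in the short cohort (median -0.63).

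Chemokine ligands had 3 of 13 members 2-fold higher and 2 lower in the long cohort (median -0.39) and 2 higher and 1 lower in the short cohort (median -0.04). Ccl5, a chemokine made by myeloid and T cells, had 385, 294, 56.0 and 217 CPM, 3.88-fold higher (3.31 to 4.55) in the short cohort. The list of suppressive myeloid genes had 2 of 6 members 2-fold higher and 1 lower in the long cohort (median -0.42). That balance turned to 1 of 7 higher and 3 lower both with HTODemux (median -0.65) and with the 1.5-fold limit (median -0.72). The short cohort had 1 of 8 members of that list 2-fold lower (median 0.21). Angiogenic and matrix factors had 1 of 10 higher and 1 lower in the long cohort (median -0.20) and none at 2-fold in the short cohort (median 0.09). The 12 glycolysis and hypoxia genes had medians of -0.16 and 0.26, all 12 above 0 in the short cohort. The BCL2 family had medians of 0.06 and 0.09.

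Of 5413 genes measured in both cohorts of the myeloid gate, 0 (0%) were at least 2-fold higher with anti-MIF in both and 1 (0.0185%) was at least 2-fold lower in both. That gene was Crem, a cyclic AMP-responsive transcription factor, with 63.8, 23.8, 63.7 and 30.5 CPM, 2.68-fold lower (1.75 to 3.99) and 2.09-fold lower (1.63 to 2.71). Its long isotype level rested on 30 UMIs in 20 cells. The limit on expected UMIs leans to genes high in the long anti-MIF arm, so the next counts cannot be set against each other. Another 19 genes were 2-fold higher in the long and 2-fold lower in the short cohort, and 0 the reverse. Of these, Ccnb2, a mitotic cyclin, had 2.13, 32.9, 11.1 and 1.44 CPM, the first from 1 UMI. Fcrls, a scavenger-like receptor of resident macrophages, had 0, 38.0, 9.54 and 2.51 CPM, at least 5.95-fold higher in the long cohort against a floor of 3 UMIs for the isotype arm and 3.80-fold lower in the short cohort. Cdca3, a mitotic entry factor, had 4.25, 23.8, 8.77 and 2.51 CPM, and Gfod1, an oxidoreductase-like gene, 6.38, 26.8, 60.9 and 18.3 CPM.

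**Figure D3:**
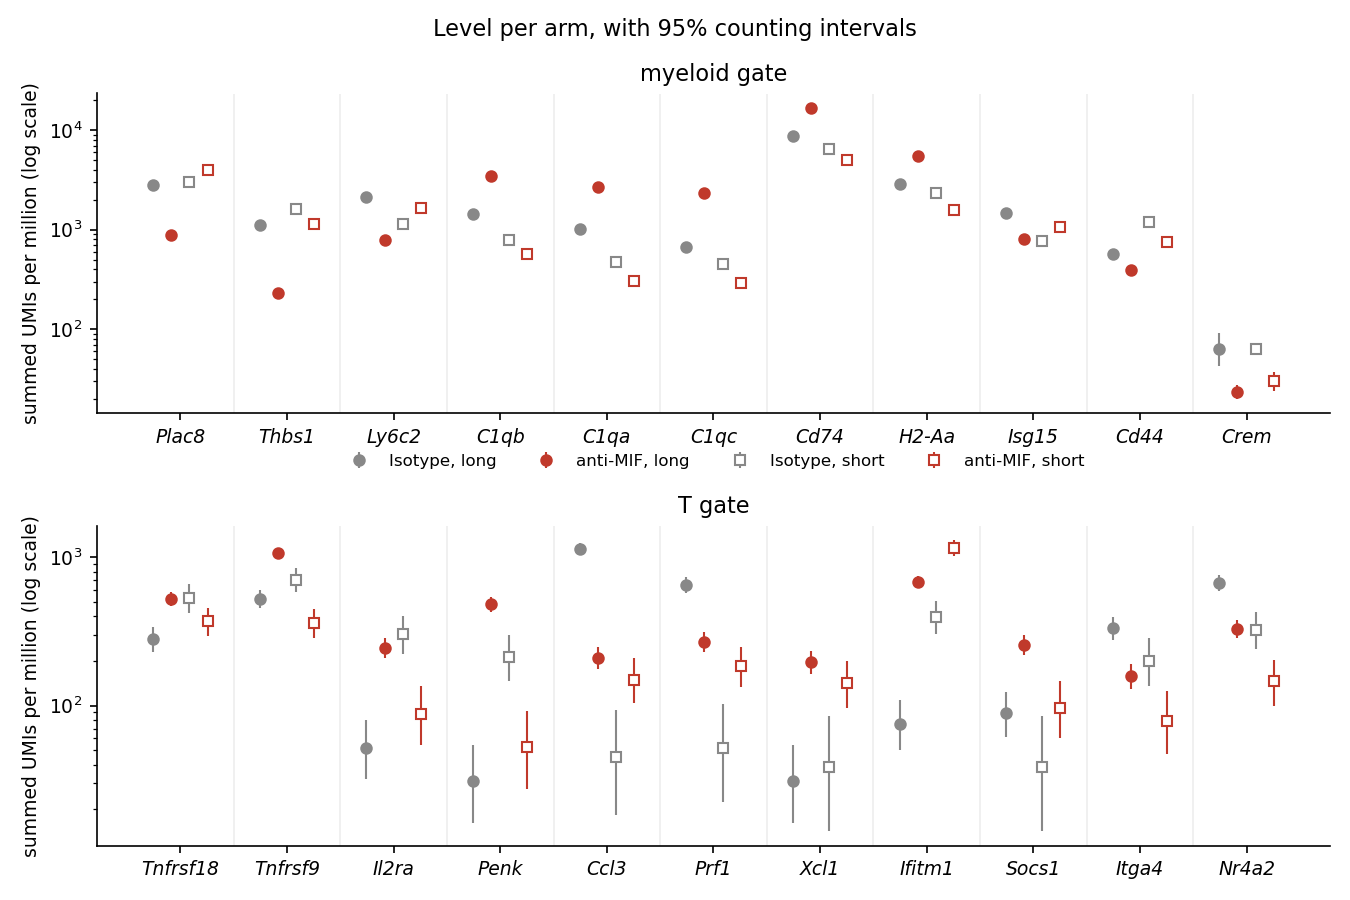
Level of 11 genes in the myeloid gate and 11 in the T gate, in CPM on a log axis with 95% counting intervals, with filled circles for the long and open squares for the short cohort, grey for isotype and red for anti-MIF. Plac8 and Ly6c2 are low in the long anti-MIF arm (890 and 786), where C1qa, C1qb and C1qc are high (2679, 3476 and 2345), and in the T gate Il2ra runs from 52.0 in the long isotype arm to 304 in the short isotype arm.

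T-gated cells with anti-MIF had 7 of 9 regulatory T cell genes at least 2-fold higher in the long cohort and 5 of 8 at least 2-fold lower in the short cohort. Among all genes measured in this gate, 320 of 5234 (6.11%) were at least 2-fold higher and 95 (1.82%) lower in the long cohort, and 100 of 2311 (4.33%) higher and 116 (5.02%) lower in the short cohort. The median log2 ratio over them was 0.07 and -0.00.

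Regulatory T cells restrain other T cells, express the transcription factor FOXP3, and carry high levels of CD25, CTLA-4 and receptors of the TNF family. Of 9 genes of this list measured in the long cohort, 7 were at least 2-fold higher with anti-MIF, all 9 were above 0, and the median was 1.31. Of 8 measured in the short cohort, 5 were at least 2-fold lower, none was above 0, and the median was -1.32. The summed level was 1852, 4130, 4494 and 1823 CPM, with the long anti-MIF and short isotype arms high and the other 2 low. After thinning to 2000 UMIs, 2 of 7 genes were 2-fold higher (median 0.92) and 4 of 6 lower (median -1.17).

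Tnfrsf9 (4-1BB), a costimulatory receptor of activated T cells, had 526, 1073, 705 and 361 CPM, 2.04-fold higher (1.74 to 2.40) and then 1.95-fold lower (1.45 to 2.63). Tnfrsf18 (GITR) had 281, 522, 530 and 370 CPM, 1.86-fold higher and then 1.43-fold lower. Ctla4, the inhibitory receptor for CD80 and CD86, had 372, 528, 1255 and 260 CPM, 1.42-fold higher and then 4.83-fold lower (3.59 to 6.58). All 3 were highest in the long anti-MIF or the short isotype arm. Il2ra (chr2:11642807-11693193, plus strand), which encodes CD25, had 52.0, 246, 304 and 88.1 CPM, 4.73-fold higher (2.96 to 7.95) and then 3.45-fold lower (2.01 to 6.15). Foxp3 (chrX:7573644-7595245, plus strand), named after its values were seen, had 5.20, 138, 136 and 44.0 CPM, from 2, 89, 21 and 10 UMIs. The long isotype count was under the floor of 3 UMIs, so the long ratio, 26.5-fold higher (7.12 to 222), is imprecise. In the short cohort Foxp3 was 3.08-fold lower (1.39 to 7.33).

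Foxp3 had a UMI in 1 of 57 (1.75%) and 20 of 108 (18.5%) T-gated cells of the long cohort and in 5 of 33 (15.2%) and 3 of 52 (5.77%) of the short cohort. At 2000 UMIs these shares were 1.89%, 13.8%, 16.0% and 6.38%. In the whole myeloid gate there were 1, 4, 1 and 2 Foxp3 UMIs. With anti–PD-1 and with anti–PD-1 plus anti-MIF the T-gated shares were 3.90% and 0% after 4 doses, and 5.05% and 10.8% after 2 doses. At 2000 UMIs the short isotype share was thus above the long anti-MIF share, and unthinned it was below. Cd4, the helper coreceptor that regulatory cells carry, had a UMI in 3.51%, 17.6%, 42.4% and 13.5% of T-gated cells, against 0%, 0.595%, 0% and 0% of myeloid-gated cells. Cd8a, the coreceptor of cytotoxic T cells, had one in 53 of 57 (93.0%) and 67 of 108 (62.0%) of the long and in 15 of 33 (45.5%) and 35 of 52 (67.3%) of the short cohort, or in 69.8%, 57.4%, 20.0% and 55.3% at 2000 UMIs. In myeloid-gated cells the Cd8a shares were 0%, 0.794%, 0.771% and 0.267%. Cd4 and Cd8a, both named after their values were seen, thus put the arms in opposite orders: the long isotype arm had the highest Cd8a and lowest Cd4 share, and the short isotype arm the reverse.

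The summed level of the cytotoxic effector genes was 10970, 7652, 3027 and 6134 CPM. NK cell markers, led by Klre1, had the same order of the arms in this gate, at 237, 197, 90.5 and 185 CPM, and their part was not tested. In the long cohort 1 of 12 was 2-fold lower (median -0.25), and in the short cohort 3 of 8 were 2-fold higher and 6 above 0 (median 0.82). Nkg7, a cytotoxic granule protein, had 2968, 2353, 1261 and 2439 CPM, 1.26-fold lower and then 1.93-fold higher. Ccl5 had 3991, 2090, 634 and 1361 CPM, 1.91-fold lower (1.77 to 2.06) and then 2.15-fold higher (1.71 to 2.72), but with the 1.5-fold hashtag limit its short log2 ratio was -0.10. Gzmb, the granzyme that starts target cell death, had 1335, 1054, 569 and 537 CPM, slightly lower with anti-MIF in each pair.

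Prf1 (chr10:61297833-61304680, plus strand), the pore former through which granzymes enter, had 650, 269, 51.7 and 185 CPM, 2.42-fold lower (1.98 to 2.95) and then 3.58-fold higher (1.66 to 8.81) from 8 and 42 UMIs. Ccl3 and Ccl4 are chemokines that CD8 T cells release on stimulation. Ccl3 (chr11:83647844-83649355, minus strand) had 1142, 209, 45.3 and 150 CPM, 5.47-fold lower (4.50 to 6.68) and then 3.31-fold higher (1.44 to 8.84). Ccl4 (chr11:83662584-83664683, plus strand) had 4261, 881, 304 and 436 CPM, 4.84-fold lower (4.40 to 5.33) and then 1.43-fold higher. Both chemokines were far above the other 3 arms in the long isotype arm, the arm with the highest Cd8a share.

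Inhibitory receptors and exhaustion genes had 3 of 11 members 2-fold lower in the long cohort (median -0.02) and 4 of 8 in the short cohort (median -0.84). Pdcd1, which encodes PD-1, was nearly level in both pairs, with 567, 582, 259 and 251 CPM. Tox, a transcription factor of exhausted T cells, had 674, 447, 265 and 185 CPM and was lower with anti-MIF in each pair. Naive and memory genes had 4 of 5 members 2-fold higher in the long cohort (median 2.01) and 2 of 6 lower in the short cohort (median 0.35, or -0.12 with gates of 1 UMI). Il7r, the interleukin-7 receptor chain, had 65.0, 263, 188 and 211 CPM, and Bach2, a repressor that keeps T cells from effector fate, 15.6, 85.1, 116 and 172 CPM. The long isotype arm was thus the lowest for both.

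The immediate early and heat shock list had 4 of 12 members 2-fold lower and 1 higher in the long cohort (median -0.90) and 3 of 9 lower in the short cohort (median -0.45). Hspa1a had 429, 15.5, 181 and 247 CPM, 27.7-fold lower in the long cohort (14.7 to 58.9), and Dnajb1, its cochaperone, 434, 57.3, 181 and 185 CPM, both named after their values were seen. The long anti-MIF arm was the low one in the T gate as in the myeloid gate. Cell cycle genes had medians of -0.26 over 15 and -0.60 over 8 members, so the long direction of the myeloid gate was not seen here. Interferon-gamma response genes had 11 of 13 above 0 in the long cohort (median 0.57, 2 of them 2-fold higher) and a median of 0.11 over 5 in the short cohort. MHC class I genes had medians of -0.06 and 0.08. Monocyte and macrophage markers, led by Ctss, summed to 307, 537, 317 and 352 CPM in the T gate, and mature dendritic cell markers, led by Ccr7, to 59.8, 207, 220 and 57.2 CPM.

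Of 2302 genes measured in both cohorts of the T gate, 7 (0.304%) were at least 2-fold higher and 3 (0.13%) at least 2-fold lower with anti-MIF in both. Xcl1, the chemokine of cross-presenting dendritic cells, had 31.2, 197, 38.8 and 141 CPM, 6.30-fold (3.48 to 12.5) and 3.63-fold (1.5 to 10.6) higher, with 59 of the 127 UMIs of the long anti-MIF arm in 1 cell. Ifitm1, an interferon-induced membrane protein, had 75.4, 681, 394 and 1149 CPM, with 131 of 440 and 90 of 261 anti-MIF UMIs in 1 cell each. Socs1, the inhibitor of cytokine signalling, had 88.5, 255, 38.8 and 96.9 CPM, 2.89-fold and 2.50-fold higher, the second with an interval of 0.982 to 7.53. For Xcl1 and Ifitm1, 1 cell thus held a large part of the UMIs.

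Parp8, an ADP-ribosyltransferase, had 18.2, 66.6, 32.3 and 123 CPM, 3.65-fold and 3.81-fold higher. Arhgef3, a guanine nucleotide exchange factor, had 31.2, 71.2, 64.7 and 141 CPM, Dscam, an adhesion molecule, 13, 108, 38.8 and 88.1 CPM, and Gm2682 36.4, 78.9, 110 and 361 CPM. The isotype levels of Parp8 and Dscam rested on few UMIs in both cohorts. On the lower side, Itga4, the integrin alpha 4 chain of T cell homing, had 333, 158, 200 and 79.3 CPM, 2.11-fold (1.61 to 2.76) and 2.53-fold (1.37 to 4.80) lower. Nr4a2, a nuclear receptor induced by antigen, had 669, 330, 323 and 145 CPM, 2.03-fold and 2.23-fold lower. Cited2, a transcriptional coregulator, had 93.7, 34.0, 123 and 30.8 CPM, 2.75-fold and 3.99-fold lower.

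Opposite directions were more frequent, with 23 of the same 2302 genes 2-fold higher in the long and lower in the short cohort and 5 the reverse. Penk, the enkephalin precursor that tumor regulatory T cells express, had 31.2, 481, 213 and 52.8 CPM, 15.4-fold higher and then 4.04-fold lower, though its short log2 ratio was 1.43 with gates of 1 UMI. Maf, a transcription factor of helper and regulatory cells, had 33.8, 169, 278 and 30.8 CPM, 4.99-fold higher and then 9.02-fold lower. Ccr2 had 13, 102, 168 and 44.0 CPM, and Ccr7, the lymph node homing receptor, 41.6, 167, 168 and 39.6 CPM, with 40 of the 108 UMIs of the long anti-MIF arm in 1 cell. The reverse set included Farp1, a cytoskeletal exchange factor, with 154, 66.6, 58.2 and 141 CPM, and Gm156 with 372, 96.0, 64.7 and 150 CPM. Over all genes measured in both cohorts the log2 ratios had the same sign in 47.0% of the T gate, 44.4% of the myeloid gate and 44.7% of all cells.

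**Figure D4:**
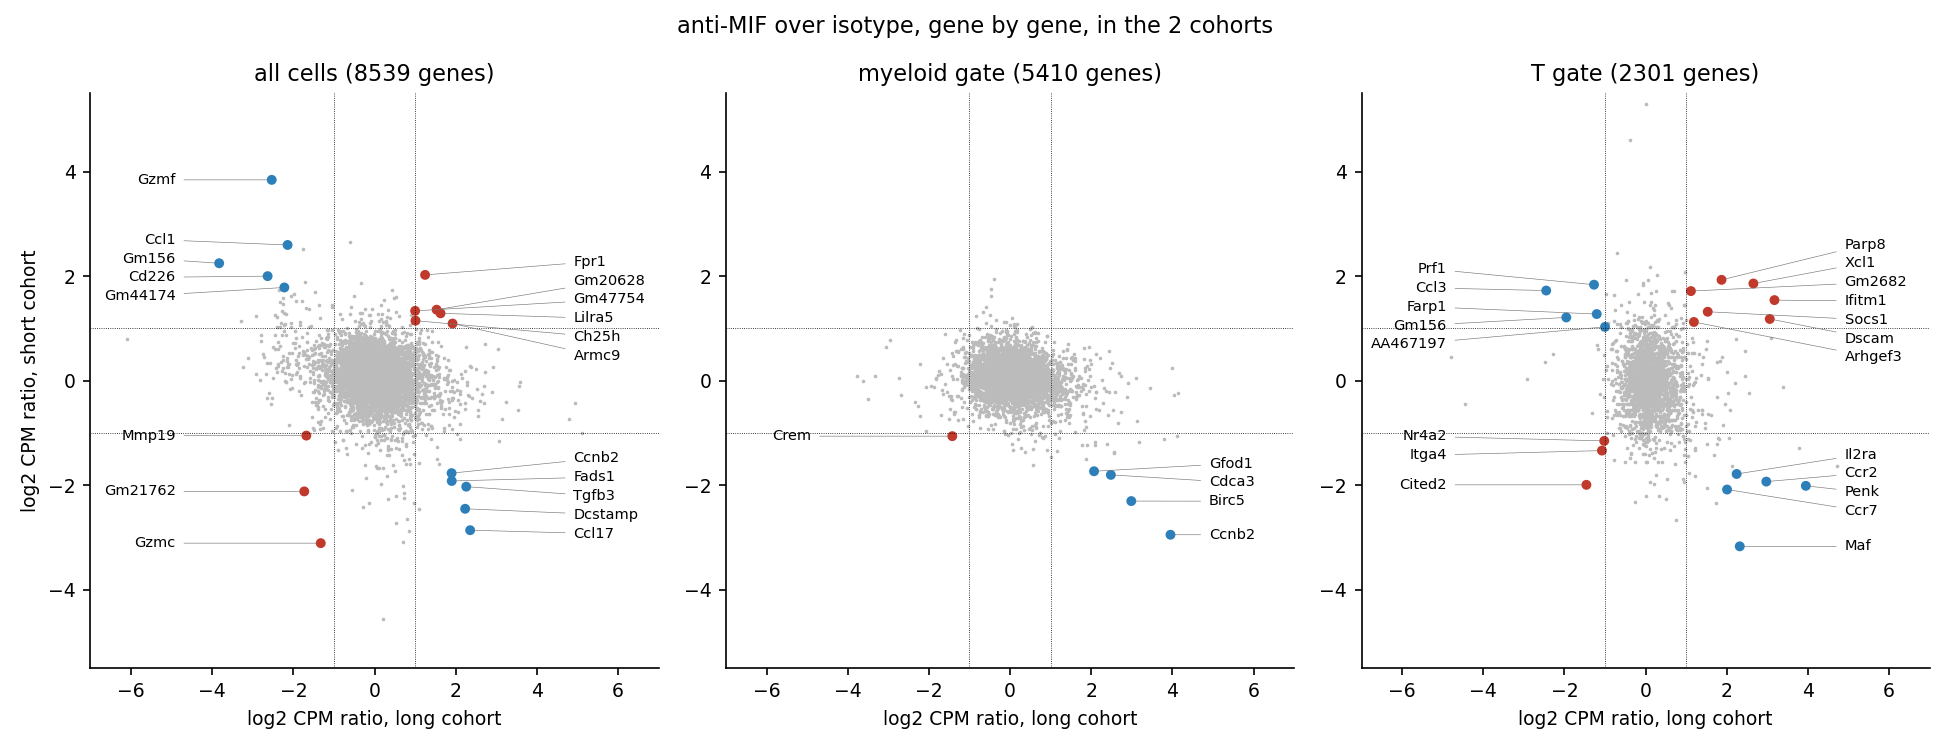
Log2 ratio of anti-MIF to isotype CPM in the long cohort (x axis) against the short cohort (y axis) for each gene with enough UMIs in both, over all cells, the myeloid gate and the T gate. Red points are at least 2-fold in the same direction in both cohorts (9, 1 and 10 genes). Genes at least 2-fold in opposite directions numbered 57, 19 and 28, and blue points are those picked for naming, so not all of them are blue. Dotted lines mark 2-fold.

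Over all cells, 352 of 8562 genes (4.11%) were at least 2-fold higher and 342 (3.99%) lower with anti-MIF in the long cohort, and 251 of 10292 (2.44%) and 196 (1.9%) in the short cohort. Of the 9 T cell markers other than Cd3e, 9 were 2-fold lower in the long cohort and 3 were 2-fold higher in the short cohort, with summed levels of 1492, 368, 192 and 332 CPM. The 11 monocyte and macrophage markers other than Lyz2 summed to 8070, 11910, 11970 and 11840 CPM, with all 11 above 0 in the long cohort and 6 in the short cohort. Neutrophil markers, led by S100a8 with a calcium-binding alarmin product, summed to 534, 122, 1303 and 1854 CPM. S100a8 had 273, 41.2, 546 and 751 CPM, and 195 of its 348 long isotype UMIs lay in 1 cell. NK cell markers summed to 423, 71.9, 223 and 236 CPM, so that the long anti-MIF arm was the low one.

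Mature dendritic cells, which carry antigen to lymph nodes, had markers at a summed 1103, 1353, 444 and 196 CPM, with 7 of 7 above 0 in the long cohort (median 0.24) and 4 of 7 at least 2-fold lower in the short cohort (median -1.04). Ccr7 had 341, 404, 148 and 71.8 CPM, Fscn1, which bundles actin in their processes, 390, 434, 106 and 26.9 CPM, and the cytokine subunit gene Il12b, named after its values were seen, 52.6, 94.8, 23.5 and 3.19 CPM. In cells outside both gates, Fscn1 had a UMI in 26.4%, 30.7%, 12.2% and 5.8% and Ccr7 in 20.8%, 33.6%, 15.9% and 6.6%, with the same order of the arms. In T-gated cells the Fscn1 shares were 0%, 2.78%, 0% and 0%. Plasmacytoid dendritic cell markers summed to 919, 887, 736 and 632 CPM and type 1 conventional dendritic cell markers to 557, 492, 356 and 384 CPM. B cell markers summed to 10.2, 17.1, 9.20 and 5.32 CPM.

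Of 8540 genes measured in both cohorts, 6 (0.0703%) were 2-fold higher with anti-MIF in both and 3 (0.0351%) 2-fold lower in both. The higher ones included Ch25h, the enzyme that makes 25-hydroxycholesterol (11.8, 23.7, 5.88 and 13 CPM), the formyl peptide receptor gene Fpr1 (4.71, 11.2, 2.74 and 11.2 CPM) and Lilra5, an activating receptor of myeloid cells (3.92, 12.1, 2.94 and 7.18 CPM). The long isotype levels of Fpr1 and Lilra5 rested on few UMIs. Over all cells too, the limit on expected UMIs leans to genes high in the long anti-MIF arm. The lower ones were Mmp19, a matrix metalloproteinase (26.7, 8.32, 41.9 and 20.2 CPM), Gm21762 (29.0, 8.74, 12.7 and 2.92 CPM), and Gzmc, a granzyme of a cluster of close paralogs (28.2, 11.3, 96.5 and 11.2 CPM), whose long log2 ratio was 0.68 at 2000 UMIs. In opposite directions were 17 genes higher in the long and lower in the short cohort, among them the dendritic cell chemokine Ccl17 (6.27, 32.1, 17.4 and 2.39 CPM) and the fusion protein gene Dcstamp (5.49, 25.8, 49.5 and 9.04 CPM). Another 40 were the reverse, among them the T and NK cell receptor gene Cd226 (74.5, 12.0, 3.92 and 15.7 CPM) and Gzmf (274, 47.3, 3.33 and 47.9 CPM), for which 179 of 180 short anti-MIF UMIs lay in 1 cell.

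A test with replication needs both cohorts. They differ in doses and day of harvest, so the test asks only for an effect shared by both. UMIs were summed per arm, the 8 arm samples with the labels isotype, anti–PD-1, anti-MIF and anti–PD-1 with anti-MIF entered 1 model with cohort and arm as terms, and the anti-MIF coefficient against isotype was tested by edgeR's quasi-likelihood test with Benjamini-Hochberg adjustment at 0.05. Over all cells 0 of 11207 genes (0%) passed, with 460 at an unadjusted p under 0.05 and 3 passing in DESeq2, and the lowest adjusted p of edgeR was 0.733. In the myeloid gate 0 of 9681 (0%) passed, with 372 at an unadjusted p under 0.05 and 1 passing in DESeq2, and the lowest adjusted p was 0.486. For the T gate 1 of 5698 (0.0176%) passed, with 219 at an unadjusted p under 0.05 and 0 passing in DESeq2. On simulated counts with 100 genes changed 4-fold, the test recovered 78% over all cells, 90% in the myeloid gate and 67% in the T gate. Of 100 changed 2-fold it recovered 35%, 29% and 12%. Recovery of genes that go opposite ways in the cohorts was not tested.

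The gene that passed was Trav3-1 (chr14:52580665-52581213, plus strand), a variable segment of the T cell receptor alpha locus with close paralogs, with a fitted log2 fold change of -6.88 (SE 0.60, adjusted p = 0.000458). It had 151 UMIs in 20 of 57 isotype T-gated cells of the long cohort, at most 15 in a cell, 2 UMIs in 1 of 108 anti-MIF cells, and 0 in both arms of the short cohort. The call therefore rested on the long isotype arm, and 0 genes passed in the fit without cohort as the replicate block. The next lowest adjusted p of edgeR in the gate was 0.411, for Cdk8, named after its value was seen. Xcl1 had a fitted log2 fold change of 2.34 (SE 0.56, adjusted p = 0.604), Ifitm1 of 2.13 (SE 0.53, adjusted p = 0.648), Parp8 of 1.85 (SE 0.42, adjusted p = 0.479) and Itga4 of -1.19 (SE 0.31, adjusted p = 0.738). Each SE is the absolute log2 fold change over the square root of the test's F statistic, and was not estimated by the fit.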

How the data were processed

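Each cohort gave 1 gene expression and 1 hashtag library of the same pooled cells. The values are UMI counts per gene or hashtag and barcode, which the authors deposited as filtered matrices without normalization. The submitters' processing notes name Cell Ranger 7.1.0, Seurat 5.1.0, R 4.3.2, DESeq2 and the build mm10. The annotation release is not given in the sources used here. Gene positions are 1-based gene bodies of GENCODE vM21 on GRCm38. The number of columns of per-sample values left unused was 0.

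Cells were kept with 200 to 5000 genes and at most 5% mitochondrial UMIs, and the arm was the hashtag with at least 3 times the UMIs of the second. The T gate needed 1 Cd3e UMI and fewer than 5 Lyz2 UMIs per 10000, and the myeloid gate at least 5 per 10000 and no Cd3e. The ratio rule removes barcodes with 2 hashtags at similar levels, but kept cells that HTODemux calls doublets of 2 arms. Doublets within an arm were not removed, no doublet caller based on gene counts was run, and free RNA was not subtracted. The median depth per cell was 7771 UMIs for long isotype, 10548 for long anti-MIF, 6385.5 for short isotype and 6381 for short anti-MIF.

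CPM is UMIs per 1000000 UMIs of the gated cells. Levels carry exact Poisson, shares Clopper-Pearson and ratios conditional binomial 95% intervals (scipy 1.17.1, numpy 2.4.6, pandas 2.3.3), all of counting error only. A gene was measured when at least 10 UMIs were expected in each arm, and the limit for naming was 2-fold. Shares of cells were repeated on cells thinned to 2000 UMIs, leaving out shallower cells. Summed counts of 8 arm samples were fitted with edgeR 4.0.16 (filterByExpr, TMM, cohort and arm as terms) in R 4.3.3. The p-values measure the spread between arm samples that the cohort and arm terms leave, which may be technical. That spread includes any difference of an arm's effect between the 2 cohorts. The model made 3, 6 and 2 false calls on simulated data for all cells, the myeloid gate and the T gate. Alternatives were HTODemux of Seurat 5.3.0 at a positive quantile of 0.99, other hashtag, Lyz2 and mitochondrial limits, gates of 1 UMI, thinned counts, other scalings and minimums, DESeq2 1.42.0, and leaving out each arm sample. Figures were drawn with matplotlib 3.10.9.

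The members and the gene lists were chosen with earlier results of these data known. Genes were named by a rule: up to 10 that were 2-fold higher and 10 lower in both cohorts, up to 5 in each opposite orientation, up to 10 past edgeR's threshold, Mif, Ddt, Cd74, Cd44, Cd3e and Lyz2, and the 3 members with most UMIs of each list described. Genes outside the rule are marked where they are named, except the genes of the MIF receptors and of the gates and the markers of cell types (T, melanoma and CD45+ cells) used as checks. The paper's methods gave the doses and days. The arms with anti–PD-1 were used for the model and as reference values, and the cells with the anti-PD1-MIF-DDT hashtag were only counted by gate. Some genes that the rule would name are not reported here.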

Additional observations from a re-analysis of the deposited data

Results flagged for a closer look

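The share of T-gated cells was lower with anti-MIF in the long cohort and higher in the short cohort, at -23.78 and 4.736 percentage points. The share of myeloid-gated cells differed by 26.12 points in the long cohort and -3.62 points in the short cohort. These opposite signs between the cohorts stand out, with 1 sample per arm and cohort, and the difference between the cohorts was not tested. The hashtag labelled anti-PD1-MIF-DDT marked 325 cells in the long and 1071 cells in the short cohort, which were only counted by gate.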

How the results depend on the processing

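The number of genes past edgeR's threshold depended on the settings. Over all cells it was 1 with HTODemux, 1 with the 1.5-fold hashtag limit (chosen after seeing the data), 1 with a mitochondrial limit of 10%, 3 with DESeq2, 18 without a filter on low counts, and 0 to 9 when 1 arm sample was left out (9 without short isotype). For the myeloid gate it was 1 with DESeq2, 48 without the filter, and 0 to 54 with 1 sample left out (54 without short anti-MIF, 3 without long anti-MIF). In the T gate it was 0 when thinned to 2000 UMIs, 0 with DESeq2, 48 without the filter, 6 with the isotype and anti-MIF arms alone, and 1 to 17 with 1 sample left out (17 without short anti-MIF, 8 without short isotype, 3 without long isotype). Cohort was the replicate block, and without the replicate block 0 genes passed in each gate.

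The long difference in T-gated share was -16.22 points with HTODemux, -16 with the 1.5-fold limit and -3.333 with a 10-fold limit. The long difference in myeloid-gated share was 43.33 points with the 10-fold limit and 14.9 with a Lyz2 limit of 20 per 10000, and that limit put the short one at -7.51 (-12.9 to -2.05). The gene comparisons under the 10-fold limit were not run, since the smallest arm held 5 cells over all cells, 1 in the T gate and 0 in the myeloid gate.

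Genes 2-fold lower in both cohorts over all cells numbered 13 with HTODemux, 15 with the 1.5-fold limit, 1 when thinned, 6 with TMM scaling, 0 with at least 30 expected UMIs and 686 with no minimum and 0.5 UMI added, and genes 2-fold higher 1 when thinned, 0 with 30 UMIs and 156 with no minimum. In the myeloid gate the higher genes numbered 4 with HTODemux, 6 with the 1.5-fold limit, 1 with the Lyz2 limit of 20, 1 when thinned, 98 with no minimum and 1 without ribosomal and mitochondrial UMIs, and the lower ones 3 with HTODemux, 2 with the 1.5-fold limit, 4 with gates of 1 UMI, 0 when thinned, 2 with TMM scaling, 0 with 30 UMIs and 659 with no minimum. In the T gate the higher genes numbered 1 when thinned, 1 with 30 UMIs and 397 with no minimum, and the lower ones 1 with 30 UMIs and 221 with no minimum. Fewer genes were tested when thinned or with 30 UMIs, and other causes were not tested.

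Of 2038 alternative log2 ratios of 84 named genes, 1817 stayed within the counting interval and 221 did not. The sign changed for 33, of which 4 had been 2-fold or more. These 4 were Gzmc over all cells in the long cohort when thinned (0.68), and in the T gate of the short cohort Ccl5 with the 1.5-fold limit (-0.10), Penk with gates of 1 UMI (1.43) and Fcer1g with the Lyz2 limit of 20 (-0.50). The smallest arm of the T gate was in the short cohort, where 33 isotype cells stood against 52. That of the myeloid gate was in the long cohort, where 48 isotype cells stood against 504. With 1 sample per arm and cohort, no interval covers the spread between tumors.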
